A study of Sus scrofa with 2 samples.

Results

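The 7 SOX transcription factor genes SOX2, SOX4, SOX5, SOX6, SOX9, SOX10 and SOX11 were followed through the cell types of the pig olfactory neuroepithelium, the nasal tissue in which the odour-sensing neurons sit. They were taken by symbol, and 7 of 7 were present among the 25880 genes listed in each count table, which held 18 SOX genes with a symbol. Nuclei from frozen tissue of a newborn wild type piglet and of a newborn CFTR knock out piglet were profiled by single-nucleus RNA sequencing in droplets, with 1 library per genotype. CFTR encodes the epithelial anion channel that is defective in cystic fibrosis, and progenitor proliferation is named in the study's title. The labels give no promoter, allele or litter for the knockout. With 1 library on each side there is no test and no replicate check: a difference below compares these libraries, not the genotypes, and each interval is a 95% interval for counting error alone.

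SOX proteins bind DNA through a high mobility group domain and usually act with partner factors. SOX2, of the SoxB1 group, keeps neural and sensory epithelia in a progenitor state and stays on in some support cells, while SOX4 and SOX11 (SoxC) act in neurons as they differentiate. SOX5 and SOX6 (SoxD) carry no activation domain of their own and work with SOX9 on cartilage genes, and SOX9 and SOX10 (SoxE) direct cartilage, gland and glial fates.

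Filtering left 4536 wild type nuclei with 17128569 transcript counts (unique molecular identifiers, UMIs; median 2966 a nucleus) and 5761 knockout nuclei with 15125185 UMIs (median 2093). Levels are given as CPM, counts per 1e6, the UMIs of a gene relative to all UMIs of the nuclei summed. CFTR stood at 88.9 CPM (wild type) and 12.7 CPM (knockout). Classes carry the ending "-like" because they were named here from marker genes; the 7 SOX genes entered neither the clustering nor the marker lists. The libraries shared 8 barcodes. Clusters 4 and 9 stayed unnamed and were shallow, with 922 of the 948 nuclei of cluster 9 from the knockout library. Cluster 7 stayed unnamed because it had only 2 gland markers, AQP5 and SLC6A11, and cluster 21 was not compared by its secretory name. Classes of under 50 nuclei in a library are mentioned with their nuclei and not ranked. Markers of respiratory secretory cells summed to 117 CPM in wild type and 791 CPM in knockout mature neuron-like nuclei, and their part in the differences below was not tested.

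Each SOX gene had its own distribution over the classes. In 12 classes each library had 50 nuclei or more, and over these 4 of 7 members were highest in the same class: SOX5 and SOX10 in ensheathing or Schwann glia-like nuclei, SOX9 in Bowman or other gland-like nuclei and SOX6 in cluster 7. For SOX2 the highest class was the sustentacular-like one in the wild type library and cluster 21 in the knockout. For SOX4 it was the globose basal or precursor-like class against the endothelial-like one (the precursor-like class in both under 3 of 8 alternatives), and for SOX11 the precursor-like class against the immature neuron-like one. The knockout leads of these 3 genes did not exceed the next class beyond counting error. Levels are not compared between SOX genes, because SOX5 and SOX6 are long genes with many introns and SOX4 and SOX11 lack introns, and nuclear libraries hold intronic reads.

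**Figure D1:**
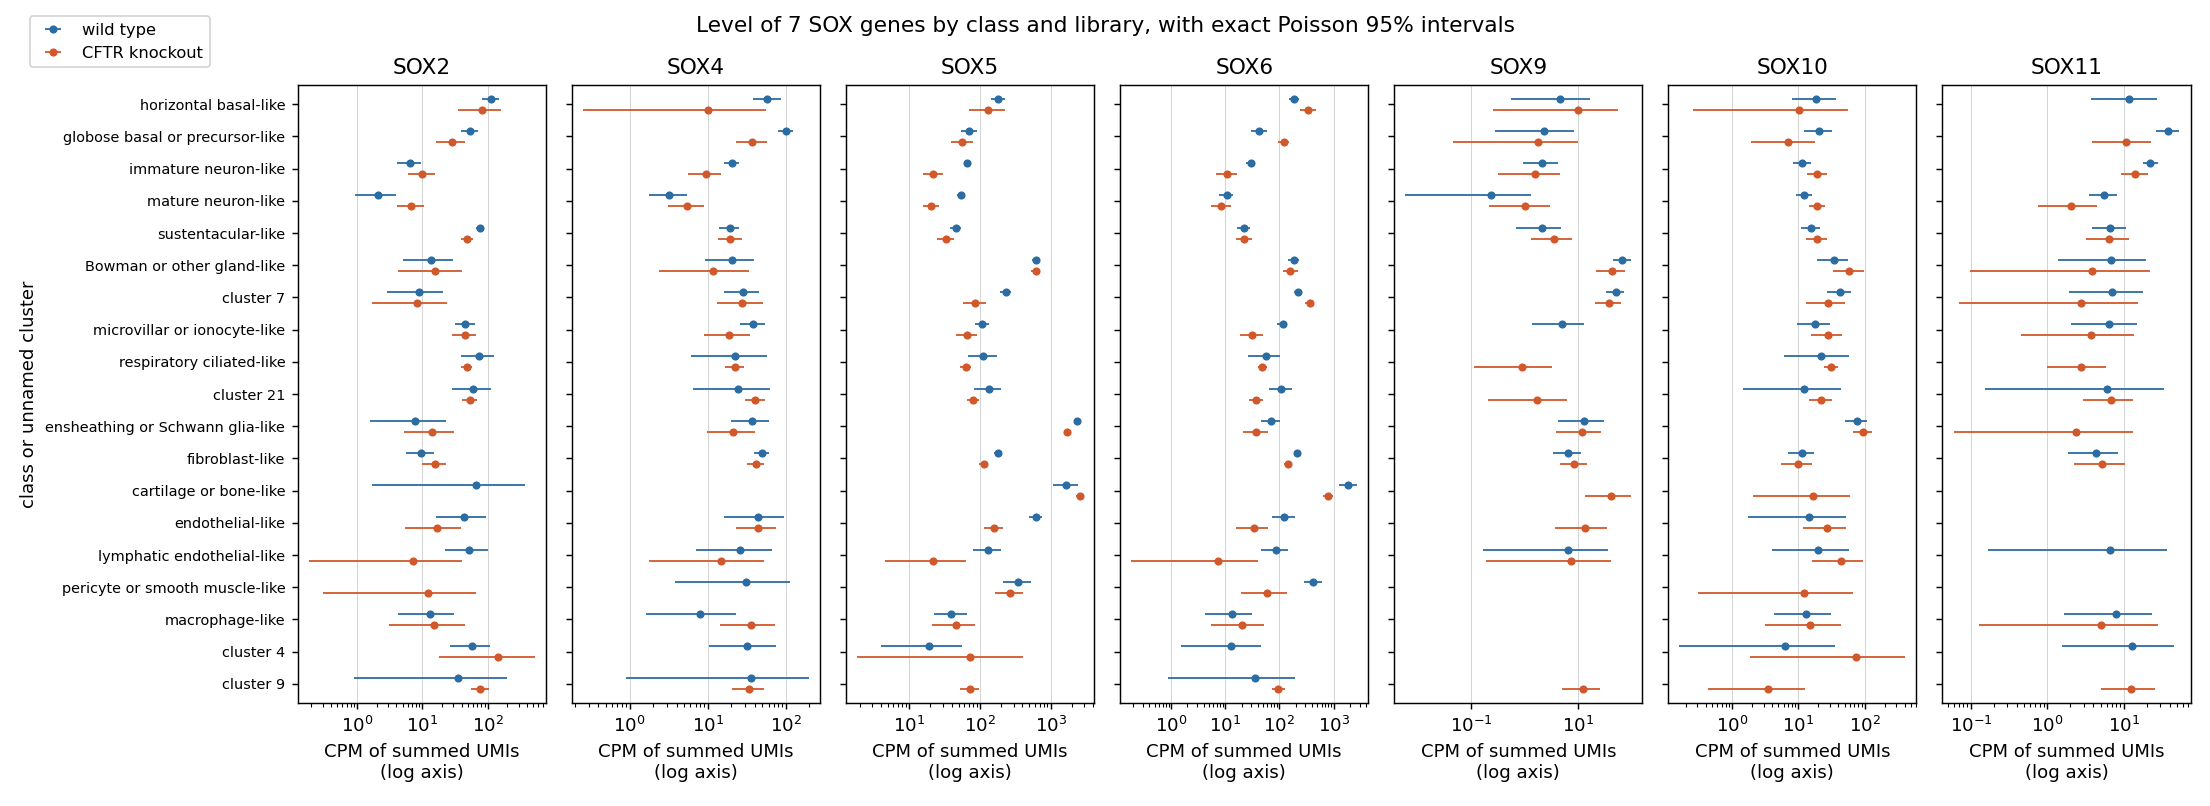
Level of each of the 7 SOX genes (panels) in CPM of summed UMIs on a log axis, by class or unnamed cluster (vertical axis), for the wild type (blue) and the knockout library (orange), with exact Poisson 95% intervals as bars. A class with 0 UMIs in a library has no point. SOX5 in glia-like nuclei stands at 2342 and 1709 CPM, and SOX9 is highest in gland-like nuclei in the classes ranked, at 67.9 and 42.9 CPM.

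SOX2 was high in several epithelial and basal classes in both libraries, but not in gland-like nuclei. These had 13.6 CPM (6 UMIs) in the wild type and 15.6 CPM (4 UMIs) in the knockout library. Its wild type level was highest in horizontal basal-like nuclei, the reserve stem cells with TP63 and KRT5, at 111 CPM (81.9 to 147, 48 UMIs), which exceeded the next class beyond counting error (the interval of the ratio left out equality). Sustentacular-like nuclei, the support cells, followed at 77.6 CPM (66.8 to 89.5). Cluster 21 at 60.3 CPM, globose basal or precursor-like nuclei at 53.9 CPM and microvillar or ionocyte-like nuclei at 45.7 CPM did not differ from their neighbours in this order beyond counting error. Nor did the shallow cluster 4 at 57.4 CPM (9 UMIs) and endothelial-like nuclei at 43.5 CPM (6 UMIs in 2 nuclei), and 35 lymphatic endothelial-like nuclei had 52.2 CPM (8 UMIs). The 31 respiratory ciliated-like nuclei, too few to rank, had 72.6 CPM (38.7 to 124, 13 UMIs). The sustentacular-like class alone held 42.9% of the wild type SOX2 UMIs, against 14.1% of all UMIs. At the other end, immature neuron-like nuclei had 6.39 CPM and mature neuron-like nuclei 2.08 CPM. Macrophage-like nuclei, in which SOX2 is not expected, had 13.2 CPM (4.30 to 30.9), from only 5 UMIs.

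The knockout library repeated much of that order. SOX2 stood at 80.7 CPM (34.8 to 159) in horizontal basal-like nuclei, but on 8 UMIs in 39 nuclei. Cluster 21 had 53.2 CPM, sustentacular-like nuclei 49.0 CPM, respiratory ciliated-like nuclei 48.2 CPM and microvillar or ionocyte-like nuclei 44.7 CPM, with no step between neighbours beyond counting error. The shallow cluster 9, with a median of 533.5 UMIs, had 77.7 CPM. Neuron-like classes were again low, at 9.92 CPM (immature) and 6.82 CPM (mature), and macrophage-like nuclei had 15.2 CPM (3.14 to 44.4, 3 UMIs).

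In sustentacular-like nuclei SOX2 was lower in the knockout library, with 83 UMIs against 187 and a CPM ratio of 0.632 (0.482 to 0.823). None of the members was past 2-fold in this class, where 8.64% of 11418 genes were. Different clusters held most of this class, cluster 1 in the wild type and cluster 2 in the knockout library, and within them the levels were 79.0 against 45.0 CPM and 73.4 against 52.0 CPM. The first interval lay below equality, at a ratio of 0.569 (0.375 to 0.840), and the second reached it, at 0.708 (0.465 to 1.08). After each nucleus was thinned to 1000 UMIs a SOX2 UMI was present in 6.50% of 723 wild type and 5.23% of 554 knockout sustentacular-like nuclei (18.8% and 12.0% without thinning). Macrophage-like nuclei had 0 of 74, so up to 4.05% of nuclei could carry a UMI, and 1.25% of 80 (3.66% and 3.00% without thinning). Median depths were 2676 and 2571 UMIs in the sustentacular-like and 2381 and 1379.5 UMIs in the macrophage-like class.

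Among 12 genes known as SOX2 partners or as factors of sensory epithelia, none of them used as a marker, 11 had at least 20 UMIs in sustentacular-like nuclei, and 9 of the 11 had a log2 ratio of knockout over wild type below 0. None was past 2-fold, and their median was -0.20, beside 0.10 for all genes of the class. EYA1, a transcriptional co-activator, stood at 4938 against 3763 CPM, and its relative EYA2 at 823 against 540 CPM. The homeobox gene MEIS1 had 318 against 199 CPM, while POU2F1, a POU factor, had 197 against 209 CPM. In the precursor-like class 7 of 10 such genes lay below 0 with none past 2-fold and a median of -0.28, where EYA2 had 3360 against 1740 CPM. SOX2 itself had 53.9 against 28.2 CPM in that class, a ratio of 0.524 (0.277 to 0.941) from 47 and 16 UMIs.

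The SoxC genes SOX4 and SOX11 were highest in the neuronal precursors of the wild type library. SOX4 stood at 99.8 CPM (79.9 to 123, 87 UMIs) in precursor-like nuclei, above the next class beyond counting error. Horizontal basal-like nuclei at 57.9 CPM, fibroblast-like nuclei at 48.9 CPM, endothelial-like nuclei at 43.5 CPM and microvillar or ionocyte-like nuclei at 38.1 CPM followed without a step. Immature neuron-like nuclei had 20.3 CPM and mature neuron-like nuclei 3.23 CPM. Within the immature class SOX4 was mostly in cluster 3, the part with TEX15 and PURG, at 32.8 CPM (61 UMIs), against 7.93 CPM (15 UMIs) in cluster 10, the part with GAP43 and GNG8. SOX4 was thus not confined to the neuronal lineage: fibroblast-like nuclei held 20.8% of its wild type UMIs, beside 19.9% in the precursor-like class. These classes made up 17.1% and 3.95% of the wild type nuclei, and held 1862408 and 871932 of the 17128569 wild type UMIs of all genes. In the knockout library no class stood out beyond counting error, with 43.6 CPM in endothelial-like, 41.6 CPM in fibroblast-like, 37.1 CPM in precursor-like and 35.5 CPM in macrophage-like nuclei. The precursor-like class led under 3 of 8 alternatives (each library clustered on its own, at least 500 genes a nucleus, each nucleus weighted equally). Fibroblast-like nuclei led at clustering resolution 0.5 and at 2, and lymphatic endothelial-like nuclei without doublet removal.

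SOX11 was the narrower gene of the pair. Its wild type level was 37.8 CPM (26.1 to 53.2, 33 UMIs) in precursor-like nuclei, above the 22.4 CPM (17.9 to 27.7, 84 UMIs) of immature neuron-like nuclei beyond counting error. Clusters 3 and 10 had like levels, 19.3 and 25.4 CPM. Mature neuron-like nuclei had 5.54 CPM, sustentacular-like nuclei 6.64 CPM and macrophage-like nuclei 7.94 CPM, from 3 UMIs. Glia-like nuclei had 0 UMIs in the wild type library, which allows up to 7.80 CPM, and 1 UMI in the knockout. The immature neuron-like class held 44.4% of the wild type SOX11 UMIs and 21.9% of all UMIs.

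**Figure D2:**
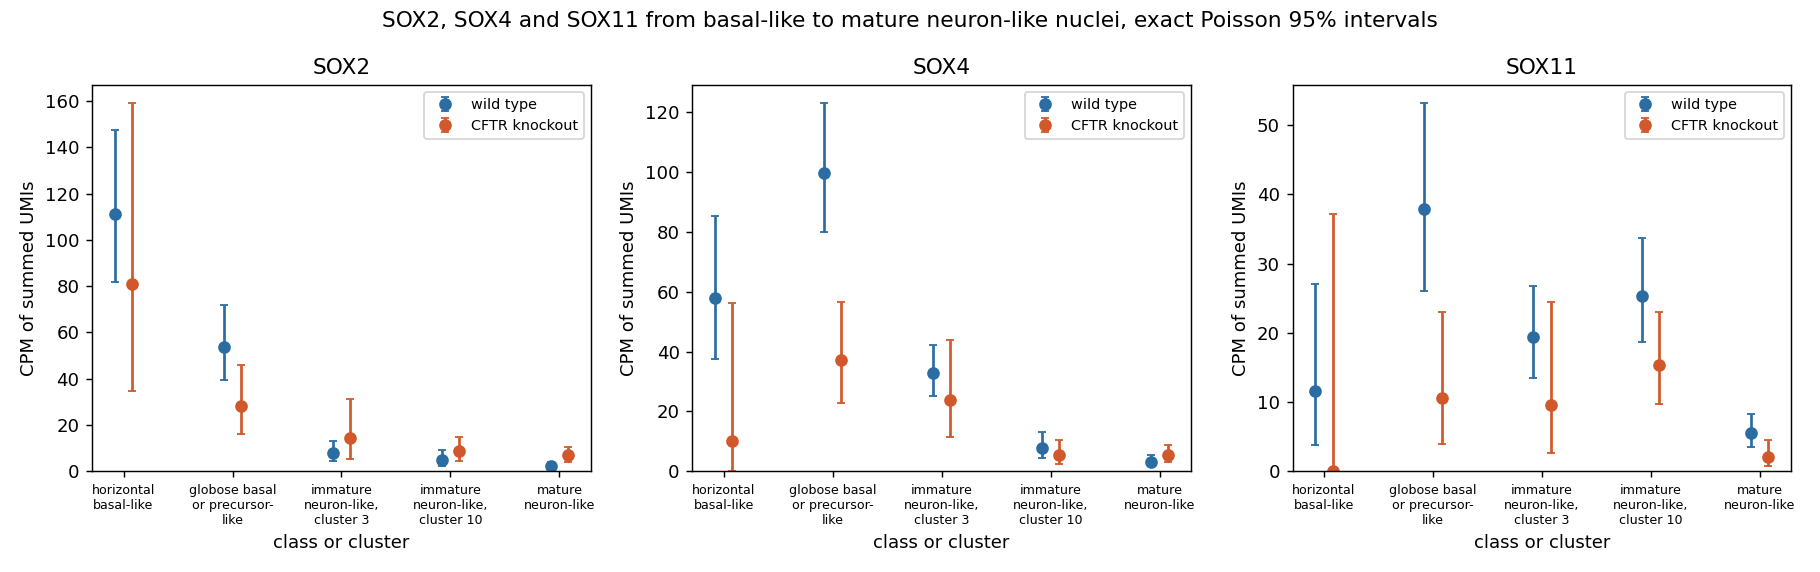
CPM of summed UMIs (vertical axes, from 0) of SOX2, SOX4 and SOX11 (panels) in horizontal basal-like, precursor-like, the 2 clusters of immature neuron-like and mature neuron-like nuclei, for the wild type (blue) and knockout library (orange), with exact Poisson 95% intervals. SOX2 goes from 111 to 2.08 CPM in the wild type library, and SOX4 and SOX11 have their highest wild type points in precursor-like nuclei, at 99.8 and 37.8 CPM, against 37.1 and 10.6 CPM in the knockout.

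In precursor-like nuclei both SoxC genes were lower in the knockout library. SOX4 had 37.1 CPM (22.9 to 56.6, 21 UMIs) in 116 knockout against 99.8 CPM in 179 wild type nuclei, a log2 ratio of -1.43 (-2.19 to -0.73). SOX11 had 10.6 CPM (3.89 to 23.0) from 6 UMIs, a log2 ratio of -1.84 (-3.38 to -0.56). Both intervals stayed below 0, and both differences were past 2-fold; in this class 7.8% of the 9112 genes with at least 20 UMIs in both libraries together were past 2-fold in either direction. Both kept that direction and size under the 6 alternatives that gave a value for each, between -1.43 and -1.10 for SOX4 and between -2.31 and -1.36 for SOX11. SOX10 was also past 2-fold lower here, at 18 and 4 UMIs, with an interval that reached 0 (-3.57 to 0.05), and SOX6 was past 2-fold higher, as given below.

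The class itself was close in its own markers, whose sums were 2092 CPM (wild type) and 2005 CPM (knockout), with 8 and 9 of the 9 markers present. Other markers did differ in it: sustentacular markers summed to 1064 against 722 CPM, horizontal basal markers to 146 against 275 CPM and respiratory secretory markers to 133 against 688 CPM, and their part in the SOX values was not tested. At 1000 UMIs a nucleus, SOX4 was found in 6.90% (3.61% to 11.7%) of 174 wild type and 2.65% (0.551% to 7.56%) of 113 knockout precursor-like nuclei, and SOX11 in 5.75% (2.79% to 10.3%) and 1.77% (0.215% to 6.25%). Unthinned shares were 31.8% and 14.7% for SOX4, and 14.5% and 5.17% for SOX11, at median depths of 4044 and 3900.5 UMIs. The thinned intervals overlap, and the shares of macrophage-like nuclei reach the same range, at 0 of 74 and 2.50% of 80 for SOX4 and 1.35% and 1.25% for SOX11 (3.66% and 7.00%, then 3.66% and 1.00%, without thinning).

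In the immature neuron-like class 8.68% of 12141 genes were past 2-fold, and SOX4 was among those lower in the knockout library, at 9.40 against 20.3 CPM, a log2 ratio of -1.11 (-1.94 to -0.35). Within its clusters the difference was smaller. Cluster 3, which had 257 wild type and 98 knockout nuclei, gave 32.8 against 23.9 CPM, a ratio of 0.730 (0.333 to 1.44), and cluster 10, with 510 and 437 nuclei, gave 7.93 against 5.35 CPM, a ratio of 0.674 (0.247 to 1.69). SOX11 was lower by less than 2-fold, at 14.1 against 22.4 CPM (log2 ratio -0.67, -1.35 to -0.03). In the mature neuron-like class, where 8.48% of 12241 genes were past 2-fold, SOX11 was lower at 6 against 24 UMIs (log2 ratio -1.44, -3.02 to -0.11), but 1 of the 4 alternatives that gave a value kept it past 2-fold, and each nucleus weighted equally gave -0.25. SOX2 was higher there, at 20 against 9 UMIs (log2 ratio 1.72, 0.52 to 3.03), which is 6.82 against 2.08 CPM. Macrophage-like nuclei had 15.2 CPM (3.14 to 44.4, 3 UMIs) in the knockout and 13.2 CPM (4.30 to 30.9, 5 UMIs) in the wild type library. The knockout level of mature neuron-like nuclei lay inside that interval and the wild type one below it. SOX4 at 5.46 against 3.23 CPM had an interval that held equality.

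Few nuclei held a UMI of both SoxC genes. Without thinning, 5 wild type precursor-like nuclei had both, of 57 with SOX4 and 26 with SOX11, and 11 immature neuron-like nuclei had both, of 68 and 76. After thinning these were 1 of 12 and 10, and 2 of 19 and 19. The knockout library had 1 such nucleus in each class without thinning and 0 after it.

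Of 10 neuronal genes known as targets of SOX4 and SOX11, 7 reached 20 UMIs, and 4 of these 7 had also served as markers. In precursor-like nuclei 6 of the 7 lay below 0 and none was past 2-fold, with a median of -0.21 beside 0.06 for all genes. The microtubule genes STMN2, STMN1, TUBB3 and DCX stood at 506 against 425, 314 against 291, 279 against 201 and 104 against 115 CPM. The immature class had a median of -0.02, beside 0.04 for all genes. There 1 gene was past 2-fold, NEUROD1, a neurogenic bHLH factor chosen here after its value was seen, with 21 wild type UMIs and 1 knockout UMI. In precursor-like nuclei NEUROD1 stood at 71.1 against 38.8 CPM.

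SOX5 had 2 high classes, glia and cartilage. Ensheathing or Schwann glia-like nuclei, which wrap the olfactory axons, carried 2342 CPM (2192 to 2500, 901 UMIs) in the wild type and 1709 CPM (1587 to 1837, 728 UMIs) in the knockout library. The class held 33.7% and 36.6% of the SOX5 UMIs with 2.25% and 2.82% of all UMIs. Cartilage or bone-like nuclei had 2562 CPM (2282 to 2867) in 56 knockout nuclei, above the glia-like level beyond counting error, and the wild type library had only 4 such nuclei, at 1667 CPM. Gland-like nuclei followed at 624 and 612 CPM. Neuron-like and support cells were low, with 45.6 and 33.1 CPM in sustentacular-like nuclei and 54.2 and 20.5 CPM in mature neuron-like nuclei, beside 39.7 and 45.6 CPM in macrophage-like nuclei.

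Most glia-like nuclei had SOX5. At 1000 UMIs a nucleus it was found in 85.3% (78.4% to 90.7%) of 143 wild type and 79.2% (72.2% to 85.0%) of 168 knockout nuclei (89.6% and 84.9% without thinning, median depths 2444.5 and 2060 UMIs). The share in cartilage or bone-like knockout nuclei was 84.3% (71.4% to 93.0%) of 51, and 87.5% without thinning. Gland-like nuclei had 43.8% and 40.0% (77.2% and 56.8% without thinning). Macrophage-like nuclei had 0 of 74, which allows up to 4.05%, and 2.50% of 80, or 7.32% and 5.00% without thinning.

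The glia-like level was lower in the knockout library by less than 2-fold, at a ratio of 0.729 (0.661 to 0.805), in a class where 12.3% of 6818 genes were past 2-fold. That direction turned without doublet removal, to a log2 ratio of 0.10 against -0.46, with the wild type level then at 1472 CPM. Nuclei with at least 5 SOX5 UMIs numbered 75 in the wild type and 58 in the knockout class and held 81.6% and 70.3% of its UMIs. Without them the levels were 1112 and 920 CPM, with an interval that held equality (-0.57 to 0.03).

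SOX5 was lower in the knockout library in 7 of 7 classes with at least 100 nuclei in each, and past 2-fold in 3 of them. The interval lay below equality in 5 of the 7. It held equality in precursor-like nuclei, at a ratio of 0.794 (0.501 to 1.24), and in sustentacular-like nuclei, at 0.725 (0.516 to 1.01). The fibroblast-like class was lower as a whole but not in its SOX5-high cluster, as given below. Besides the glia-like class, the sustentacular-like one turned under 1 alternative, to a log2 ratio of 0.21 with each nucleus weighted equally, against -0.46. In immature neuron-like nuclei it had 21.9 CPM (42 UMIs) against 66.9 CPM (251 UMIs), a log2 ratio of -1.61 (-2.12 to -1.13). In the mature neuron-like class the values were 20.5 and 54.2 CPM, a log2 ratio of -1.41 (-1.84 to -0.99), and both stayed past 2-fold lower under each of the 8 alternatives. The mature class fell mostly into different clusters, with 613 wild type nuclei in cluster 0 and 782 knockout nuclei in cluster 5. Cluster 0 had 61.2 against 8.12 CPM, from 181 and 6 UMIs, and cluster 5 had 39.2 against 24.6 CPM, from 54 each, a ratio of 0.628 (0.422 to 0.933). Glia markers summed to 283 CPM in wild type and 327 CPM in knockout mature neuron-like nuclei, and fibroblast markers to 152 and 374 CPM, and their part in the SOX5 values was not tested. The third class was cluster 7, at 85.5 against 231 CPM (log2 ratio -1.44), where 12.4% of 7423 genes were past 2-fold. That difference rested on 10 wild type nuclei with at least 5 SOX5 UMIs, and without them it was 85.5 against 108 CPM, a log2 ratio of -0.33 (-1.02 to 0.33).

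Endothelial-like nuclei had 616 CPM of SOX5 in 50 wild type and 157 CPM in 123 knockout nuclei. In the wild type 9 nuclei held 65.9% of the 85 UMIs, and without them the level was 292 CPM. Knockout pericyte-like nuclei, of which there were 55, had 265 CPM.

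SOX6 was spread over stromal, basal and gland-like cells. In the wild type library cluster 7 at 221 CPM (184 to 263), fibroblast-like nuclei at 210 CPM, horizontal basal-like nuclei at 188 CPM and gland-like nuclei at 183 CPM did not differ from their neighbours beyond counting error. The 4 wild type cartilage or bone-like nuclei, too few to rank, had 1867 CPM (1241 to 2699, 28 UMIs). In the knockout library cartilage or bone-like nuclei led at 801 CPM (648 to 979) in 56 nuclei, followed by cluster 7 at 361 CPM (302 to 429), each above the next beyond counting error. Then came gland-like nuclei at 160 CPM and fibroblast-like nuclei at 142 CPM. Horizontal basal-like nuclei, of which there were only 39, had 343 CPM from 34 UMIs. Glia-like nuclei, so high in SOX5, had 70.2 and 37.5 CPM of SOX6, and mature neuron-like nuclei had 10.6 and 8.52 CPM, beside 13.2 and 20.3 CPM in macrophage-like nuclei. Microvillar or ionocyte-like nuclei had 114 against 31.7 CPM of SOX6, but 7 of the 84 wild type nuclei held 63 of the 90 UMIs, and without them the level was 43.1 CPM. In pericyte-like nuclei, only 33 of them wild type, the values were 422 and 60.2 CPM, with 19 of the 27 wild type UMIs in 2 nuclei.

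The fibroblast-like level of SOX6 came almost wholly from 1 of its 2 clusters. Cluster 16, with COL12A1 and ABI3BP and, from the cartilage or bone markers, RUNX2 and IBSP, had 509 CPM (wild type, 369 UMIs) and 655 CPM (knockout, 201 UMIs). Cluster 12, with TMEM132C, LUM and DCN, had 19.3 and 13.8 CPM. SOX5 followed the same split, at 338 and 397 CPM in cluster 16 against 76.5 and 42.2 CPM in cluster 12. SOX4 did not, with 62.1 and 29.3 CPM in cluster 16 and 40.4 and 44.6 CPM in cluster 12. As the wild type library had 286 nuclei of cluster 16 and the knockout 163, the class as a whole was lower in the knockout for SOX6, at a ratio of 0.675 (0.569 to 0.798), whereas cluster 16 alone was higher, at 1.29 (1.08 to 1.53). SOX5 was also lower over the whole class, at 113 against 178 CPM, but stood at 397 against 338 CPM in cluster 16. Neither SOX5 nor SOX6 was past 2-fold in the fibroblast-like class, where 11.2% of 11362 genes were.

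**Figure D3:**
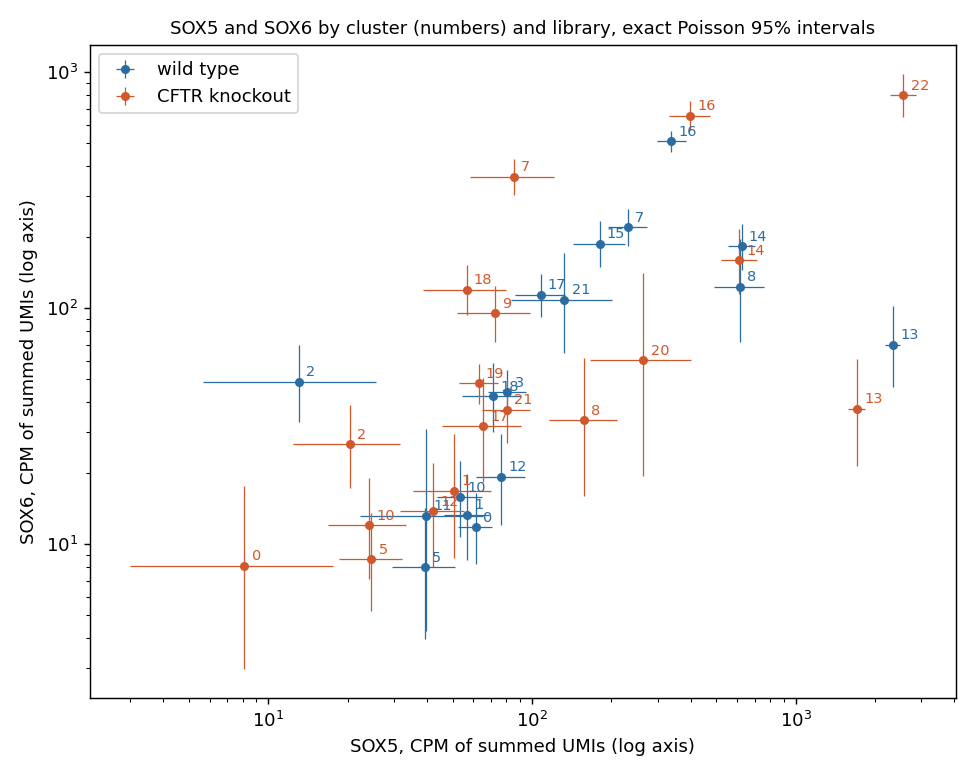
SOX5 (horizontal) against SOX6 (vertical) in CPM of summed UMIs, both on log axes, for the 35 points formed by a cluster (number) in the wild type (blue) or knockout library (orange) with at least 50 nuclei and at least 5 UMIs of each gene, with exact Poisson 95% intervals. Cluster 13, the glia-like one, lies far to the right at 2342 and 1709 CPM of SOX5 with 70.2 and 37.5 CPM of SOX6, while cluster 16 is high in both genes and cluster 22, the cartilage or bone-like one, is highest in both for the knockout library.

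Cluster 7 had more SOX6 in the knockout library, at 361 against 221 CPM, a ratio of 1.64 (1.27 to 2.11), which is short of 2-fold. At 1000 UMIs a nucleus 16.7% of 132 wild type and 24.6% of 122 knockout nuclei had a SOX6 UMI, or, unthinned, 36.1% and 29.2% (median depths 3098 and 1883.5 UMIs). Macrophage-like nuclei had 1.35% and 1.25% (6.10% and 4.00% without thinning). The horizontal basal-like class had SOX6 in 16.8% of 101 and 27.0% of 37 nuclei (38.1% and 41.0% without thinning).

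SOX6 was past 2-fold in 2 classes, in opposite directions, and both values leaned on a few nuclei. In precursor-like nuclei it was higher in the knockout library, 120 against 42.4 CPM (log2 ratio 1.5, 0.90 to 2.12), but 3 knockout nuclei held 52 of the 68 UMIs, 1 of them with 32. Without nuclei of at least 5 SOX6 UMIs the levels were 28.4 and 17.2 CPM, a log2 ratio of 0.72 (-0.39 to 1.84), and the thinned shares were 2.65% and 2.87% (10.3% and 9.50% without thinning). In immature neuron-like nuclei it was lower, with 21 UMIs against 112 (log2 ratio -1.44, -2.19 to -0.76). There 4 wild type nuclei, with a median of 33560.5 UMIs against 3682 in their class, held 43 of the 112, and without them the log2 ratio was -0.80 (-1.57 to -0.07).

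In the knockout library most cartilage or bone-like nuclei with SOX6 also had SOX5, which most nuclei of the class have. After thinning, 15 of 51 nuclei had a UMI of each, of 43 with SOX5 and 19 with SOX6. Without thinning 32 of 56 nuclei had both, of 49 and 34. After thinning, fibroblast-like nuclei had both in 25 wild type nuclei, of 89 and 84, and in 14 knockout nuclei, of 49 and 47. In cluster 7, 2 wild type nuclei of 16 and 22 and no knockout nucleus of 9 and 30 had both after thinning.

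SOX9 was scarce, with 99 wild type and 78 knockout UMIs in all. The gland-like class led at 67.9 CPM (45.8 to 96.9, 30 UMIs) and 42.9 CPM (21.4 to 76.8, 11 UMIs). In the wild type library cluster 7 followed at 50.8 CPM, with no step from the gland-like class but above glia-like nuclei at 13 CPM beyond counting error. In the knockout, cartilage or bone-like nuclei at 42.1 CPM (13.7 to 98.3, 5 UMIs) and then cluster 7 at 38.6 CPM followed, with no step. Neuron-like nuclei had almost none, with 1 and 3 UMIs in 1013 and 936 mature neuron-like nuclei, and macrophage-like nuclei had 0 in both, which allows up to 7.94 and 15.2 CPM. A SOX9 UMI was found in 24.1% and 11.1% of gland-like nuclei without thinning and in 5.48% of 73 and 1.33% of 75 after it, at median depths of 4321 and 2745 UMIs, beside 0 of 74 and 0 of 80 macrophage-like nuclei (up to 4.05% and 3.75%). Among classes of at least 100 nuclei in each library, only cluster 7 and the fibroblast-like class reached 20 UMIs of SOX9, and both intervals held equality. The gland-like class, with 79 wild type and 81 knockout nuclei, was too small for a ratio under that rule.

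SOX10, the glial factor, was highest in glia-like nuclei, at 75.4 CPM (50.5 to 108, 29 UMIs) in the wild type and 93.9 CPM (67.1 to 128, 40 UMIs) in the knockout library. The wild type level exceeded the next class, cluster 7 at 42.0 CPM, beyond counting error, while in the knockout gland-like nuclei at 58.5 CPM did not fall short beyond it. Gland-like nuclei of the wild type had 33.9 CPM. The glia-like class held 10.4% and 11.6% of the SOX10 UMIs, a smaller share than of SOX5, with 2.25% and 2.82% of all UMIs. Knockout respiratory ciliated-like nuclei held more SOX10 UMIs than knockout glia-like nuclei, 69 of 344 against 40. Their level was lower, at 31.4 CPM (24.4 to 39.7) in 445 nuclei, of which 13.9% had a SOX10 UMI without thinning. The 31 wild type nuclei of that class had 22.3 CPM from 4 UMIs. The neuron-like classes had 11.5 and 12.2 CPM among wild type and 19.3 and 19.4 CPM among knockout nuclei, beside 13.2 and 15.2 CPM in macrophage-like nuclei. At 1000 UMIs a nucleus it was found in 6.29% and 7.14% of glia-like nuclei (16.2% and 19.6% without thinning), against 1.35% and 1.25% of macrophage-like nuclei (6.10% and 3.00% without thinning). Of the thinned glia-like nuclei with SOX10, 8 of 9 wild type and 8 of 12 knockout nuclei also had SOX5, which most nuclei of the class have.

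SOX10 had the highest ratio of knockout over wild type among the members over all nuclei, as given below, but its glia-like ratio of 1.25 (0.753 to 2.08) held equality. In immature neuron-like nuclei it was higher in the knockout, 37 against 43 UMIs or 19.3 against 11.5 CPM (log2 ratio 0.75, 0.08 to 1.42), and in the mature class 19.4 against 12.2 CPM (log2 ratio 0.67, 0.10 to 1.24). Both levels are close to that of macrophage-like nuclei, which rests on only 5 wild type and 3 knockout UMIs. Cluster 3 accounted for much of the immature difference, at 28.7 against 8.59 CPM from 12 and 16 UMIs, while cluster 10 had 16.7 against 14.3 CPM.

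Glial genes known as targets of SOX10 were mostly lower in the glia-like class of the knockout library. Of 12 listed, 9 had at least 20 UMIs there, 8 of them lay below 0 and 4 were past 2-fold lower in the knockout, none higher. Of all 6818 genes of the class 2963 lay below 0, and of the 12.3% past 2-fold 262 were lower and 574 higher. Their median was -0.91 beside 0.09 for all genes, and 6 of the 10 members with at least 20 UMIs over all nuclei had served as markers. MITF, a melanocyte and glial factor, stood at 133 against 70.4 CPM, the myelin gene MBP at 70.2 against 30.5 CPM and the cadherin gene CDH19 at 1115 against 676 CPM. ERBB3, the neuregulin receptor, had 242 against 265 CPM. Besides MBP the genes past 2-fold included, chosen after their values were seen, the endothelin receptor gene EDNRB at 192 against 46.9 CPM and GFRA3 at 18 against 6 UMIs. The glia markers of the class, some of them the same genes, summed to 3418 and 2234 CPM with 11 of 11 present, and secretory markers in it to 114 and 990 CPM, and their part was not tested.

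Cartilage matrix genes known as targets of SOX9, SOX5 and SOX6 were highest where SOX5 and SOX6 were highest in the knockout library. Of the 11 with at least 20 UMIs, 9 had their highest level in cartilage or bone-like knockout nuclei, but 7 of the 11 were markers that named the class. COL11A1 had 2925 CPM there, ACAN 657 CPM and COL2A1 556 CPM, while CNMD was highest in cluster 7, at 163 CPM. In the wild type library, where the class had 4 nuclei, 6 of the 11 were highest in fibroblast-like nuclei. Over all nuclei 5 were past 2-fold higher in the knockout and 1 lower, with a median of -0.24 beside 0.10 for all genes. Of all 16106 genes 9.88% were past 2-fold, 1105 higher and 487 lower. Chosen after their values were seen, the higher ones were COL2A1, COL11A2, HAPLN1, MATN3 and COMP, and the lower one was MATN4, at 3.24 against 15.9 CPM.

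Over all nuclei together 0 of 7 members were past 2-fold between the libraries, where 9.88% of 16106 genes were. SOX11 came closest, at 5.62 against 11.0 CPM, a log2 ratio of -0.97 (-1.36 to -0.60). SOX4 at -0.26 (-0.47 to -0.05), SOX5 at -0.25 (-0.33 to -0.16) and SOX6 at -0.15 (-0.28 to -0.02) had intervals below 0, but SOX6 turned to 0.21 with each class weighted equally. SOX10 was higher, at 0.48 (0.25 to 0.71), and was 0.057 with equal class weights. The intervals of SOX2 at 0.17 and SOX9 at -0.16 held 0, and SOX2 was -0.33 with equal class weights. These values move with the shares of the classes, which differed: precursor-like nuclei made up 3.95% (wild type) and 2.01% (knockout) of all nuclei, and immature neuron-like nuclei 16.9% and 9.29%. Larger shares in the knockout were those of respiratory ciliated-like nuclei (0.683% and 7.72%), cluster 21 (1.19% and 7.67%) and cluster 9 (0.573% and 16.0%). Respiratory ciliated-like nuclei had 13 and 106 UMIs of SOX2 and 4 and 69 of SOX10. The part of each class in these values was not tested.

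In the 7 classes compared by ratio, 39 of the 49 member and class pairs had at least 20 UMIs. The log2 ratio was below 0 in 26 of the 39, with an interval below 0 in 14 and above 0 in 5. Past 2-fold were 11 pairs, 9 of them lower in the knockout: 3 for SOX5, 2 each for SOX4 and SOX11, and 1 each for SOX6 and SOX10. Of all genes between 7.8% and 12.4% were past 2-fold by class, and more lay above 0 than below in each of the 7 classes, from 4677 of 11418 below in sustentacular-like to 5619 of 12141 in immature neuron-like nuclei. The higher pairs were SOX2 in mature neuron-like and SOX6 in precursor-like nuclei. Of the 11 pairs, 6 stayed past 2-fold in the same direction under every alternative that gave a value, and none took the other direction.

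**Figure D4:**
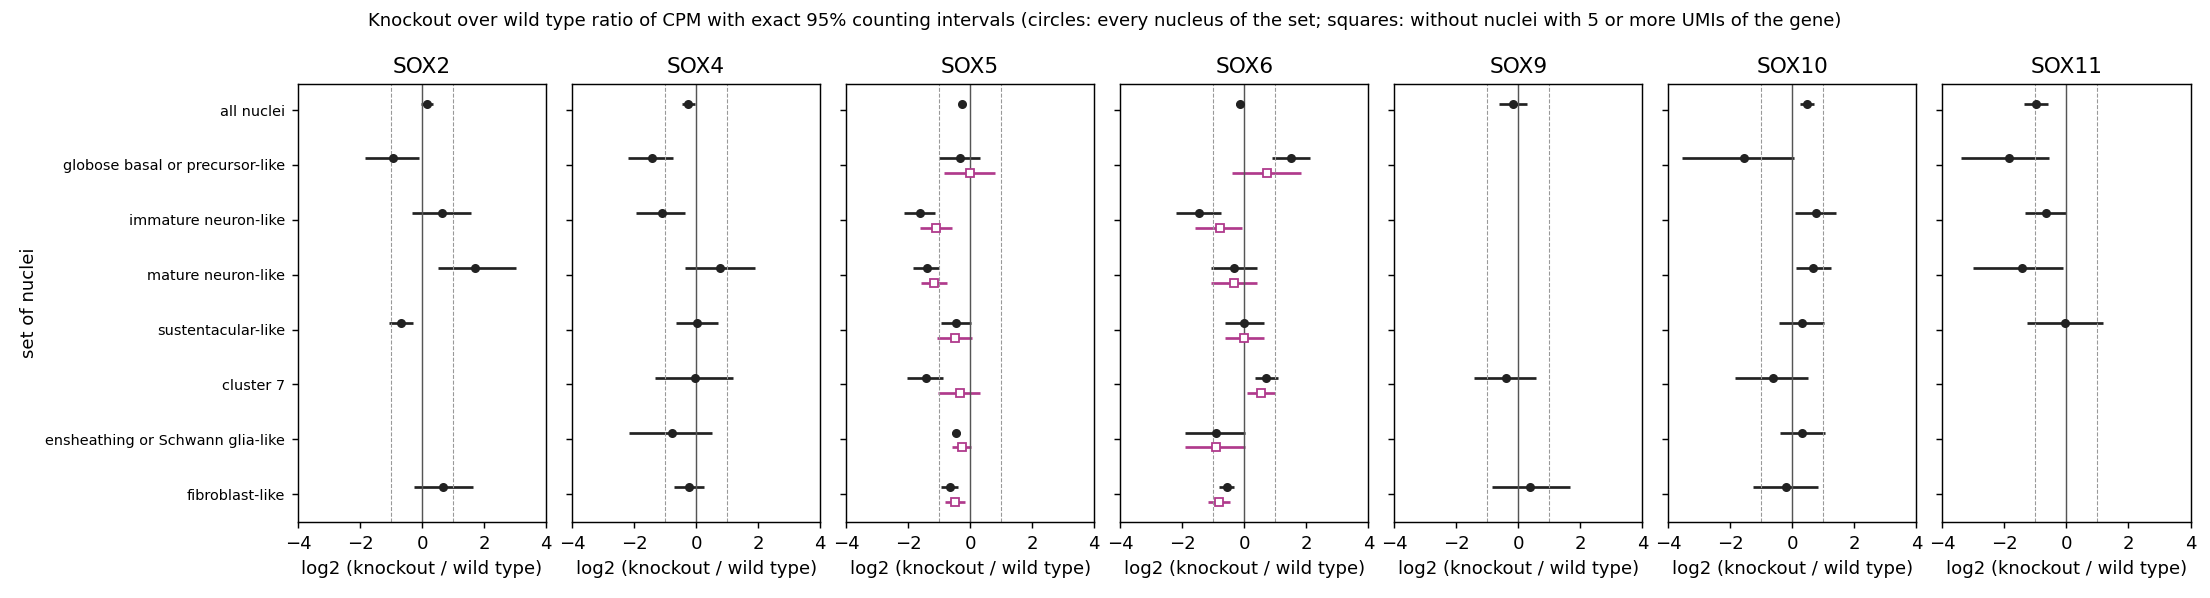
Log2 ratio of knockout over wild type CPM (horizontal axes, broken lines at 2-fold) for each SOX gene (panels) for the whole libraries and the 7 classes of 100 or more nuclei in each (vertical axis), for pairs with at least 20 UMIs, with exact conditional 95% intervals. Circles use every nucleus, and for SOX5 and SOX6 open squares leave out nuclei with at least 5 UMIs of the gene: SOX5 in cluster 7 goes from -1.44 to -0.33 and SOX6 in precursor-like nuclei from 1.5 to 0.72.

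The pattern of each member over the classes was set beside that of 8675 genes that reached 50 CPM, by Pearson's r of log2(CPM + 20) over 29 points, each a class in 1 library. The points share the libraries, and these genes helped to define the classes, so the values are a description. The closest were ETNK1, B4GALT6 and F2RL1 for SOX2 (0.85, 0.83 and 0.82) and ZNF362, TMEM2 and DGKD for SOX4 (0.73, 0.71 and 0.68). For SOX11 they were FSD1, SSX2IP and GINS2 (0.82, 0.81 and 0.81). SOX5 was closest to WNK4, BCAR3 and SESN3 (0.86, 0.79 and 0.77) and SOX6 to ZNF704, ARF4 and SCARA3 (0.78, 0.76 and 0.76). SOX9 was closest to GATA6, JMY and PGGHG (0.85, 0.82 and 0.82) and SOX10 to FAM102A, MFAP3L and CDK18 (0.87, 0.84 and 0.83). These names depend on the added constant. With 5 CPM added in place of 20, those of SOX10 all stayed the closest and none of SOX4 did. ETNK1 and B4GALT6 stayed for SOX2, WNK4 and BCAR3 for SOX5, ZNF704 for SOX6, JMY for SOX9 and SSX2IP for SOX11. Among the members SOX6 with SOX9 (0.66) and SOX5 with SOX6 (0.60) were most alike, and SOX4 with SOX11 had 0.40.

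Of 12 other SOX genes listed, 11 were in the tables and 4 reached 20 UMIs over all nuclei. All 4 lay above 0 and none was past 2-fold, with a median log2 ratio of 0.59 beside 0.10 for all genes. SOX13, another SoxD gene, had 276 and 372 UMIs and stood at 130 and 136 CPM in glia-like nuclei. Pericyte-like nuclei had more, at 297 CPM in 33 wild type nuclei (19 UMIs) and 180 CPM in 55 knockout nuclei (15 UMIs). The knockout interval (101 to 298) overlapped the glia-like one (103 to 176). By class SOX13 was past 2-fold higher in the knockout in fibroblast-like, precursor-like and mature neuron-like nuclei, at ratios of 2.13, 2.56 and 3.14. In those classes 11.2%, 7.8% and 8.48% of all genes were past 2-fold. SOX13 was not past it in glia-like or immature neuron-like nuclei or in cluster 7. SOX18, a vascular factor, was highest in endothelial-like nuclei, at 370 and 144 CPM. It was past 2-fold higher in fibroblast-like and mature neuron-like nuclei, at 16 against 7 and 13 against 7 UMIs. SOX8, of the SoxE group, and SOX12, of the SoxC group, had 22 and 29, and 20 and 22 UMIs.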

How the data were processed

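Per the labels, nuclei were isolated from frozen sections of dissected olfactory neuroepithelium and sequenced with 10x Genomics chemistry. Each library came as 1 deposited table of raw UMI counts, genes by nuclei, in whole numbers. Cell Ranger, Seurat 4.0 and R 4.0.2 appear in the submitters' processing notes; genome build, annotation and aligner version: not given in the sources used here. Each table was tied to its sample by the code that ends the sample title, and 0 value columns were mapped to no sample. The deposited tables held 4715 wild type and 6054 knockout barcodes, none under 500 UMIs.

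One wild type nucleus with fewer than 200 genes was removed. The automatic threshold of Scrublet marked a single nucleus per library as a doublet, so it failed here; instead the top-scoring 178 wild type and 293 knockout nuclei were left out, at 0.8% per 1000 nuclei. Both libraries were clustered together, without integration, in scanpy 1.11.5 (2000 variable genes without the SOX members, CFTR and mitochondrial genes; 30 components; 15 neighbours; Leiden resolution 1). Clusters were named only where at least 3 markers of a type, exceeding every other type, were raised and the median depth was not far below that of the library. Intervals are exact Poisson for CPM, conditional binomial for ratios and Clopper-Pearson for shares, at 95%; the limit for a count of 0 is 3 counts. They cover counting error only. Ratios required 20 UMIs in both libraries together, and 2-fold was called as past the threshold; the ratio code recovered known folds on simulated data. Named genes were the 7 members, the other SOX genes with at least 20 UMIs, up to 4 genes with the most UMIs of each other list, and the 3 most alike genes per member. The members and lists were chosen with earlier results of these data known. One gene counted in a list is not reported here by name. Python 3.11.15, R 4.3.3 and edgeR 4.0.16 (scaling factors only) were used. The alternatives covered scaling, weighting, clustering, filters, doublets, thinning and, chosen after seeing the data, leaving out the shallow clusters or nuclei with at least 5 UMIs of a member.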

Additional observations from a re-analysis of the deposited data

How the results depend on the processing

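No paired analysis was possible because each genotype has 1 library and no result comes from a test. The members highest in the same class numbered 4 or 5 of 7 under every alternative run. The knockout lead of SOX4 passed from the endothelial-like to the precursor-like class under 3 of 8 alternatives. It passed to the fibroblast-like class at clustering resolution 0.5 and at 2, and to the lymphatic endothelial-like class without doublet removal. The knockout lead of SOX11 passed from the immature neuron-like to the precursor-like class under 1 of 8 and to an unnamed cluster under 3. With resolution 0.5 or each library clustered on its own, the knockout lead of SOX5 passed from cartilage or bone-like to glia-like nuclei. In both settings that of SOX6 passed to an unnamed cluster. The wild type lead of SOX6 passed from cluster 7 to horizontal basal-like nuclei in libraries clustered separately. Without doublet removal it was in pericyte-like nuclei. Equal nucleus weights put it in gland-like nuclei, and SOX9 in cluster 7 (wild type) and cartilage or bone-like nuclei (knockout). Over all nuclei, equal class weights gave log2 ratios of -0.33 for SOX2 (0.17 as reported), -0.66 for SOX4 (-0.26), -0.55 for SOX5 (-0.25), 0.057 for SOX10 (0.48) and 0.21 for SOX6 (-0.15), so that SOX2, whose interval held 0, and SOX6 took the other direction. Each nucleus weighted equally gave 0.40 for SOX2 and 0.20 for SOX10. SOX5 was -0.34 with TMM scaling, -0.36 with median-of-ratios scaling and -0.11 without nuclei with at least 5 of its UMIs. SOX11 stayed between -1.09 and -0.67. Pairs of member and class past 2-fold numbered 11 of 39 as reported, 7 of 37 at clustering resolution 2 and 7 of 31, over 6 classes, with each library clustered on its own. The percent of all genes past 2-fold was 9.88 and rose to 13.4 with a minimum of 5 UMIs. Cluster 7 could not be followed in the other clusterings, so its values have no such check. The cause of these shifts was not tested. Levels of SOX9, SOX10 and SOX11 rest on few UMIs, and thinned shares near those of macrophage-like nuclei cannot be told from background.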
